A study of Mus musculus with 45 samples.

Results

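The late OCT4 peaks are 406 of the 184964 ATACseq peaks of the degron time series, or 0.22% of them. They were chosen by their measured levels: accessibility was at least 2 times higher after 24 h of OCT4 depletion, had risen little or not at all at 2 h, and had risen little or not at all after 24 h of SOX2 depletion. Levels are given in CPM, the fragments counted in a peak per 1000000 counted outside the mitochondrial genome in the same library, averaged over the replicates of a group. A peak was kept when OCT4-FKBP cells at 24 h had a mean of at least 4 CPM and at least 2 times the level of cells without dTAG-13 (NT). In addition, their 2 h level had to be no more than 25% above NT, and SOX2-FKBP cells at 24 h at most 1.2 times their own NT level. Falls were not limited, and the lowest 2 h ratio among the members was 0.389. These values are therefore a description of the set and are not tested here. For comparison, 84 peaks passed the same kind of thresholds in both lines and 150 in SOX2-FKBP cells only.

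ATACseq uses the Tn5 transposase to cut DNA that is not covered by nucleosomes, so the fragments of a peak report how open that site is. The cells were mouse embryonic stem cells kept without serum in 2i and LIF on gelatin, in which SOX2, OCT4 or NANOG carries an FKBP tag that 500 nM dTAG-13 sends to the proteasome. OCT4-FKBP cells derive from V6.5 cells and the SOX2-FKBP and NANOG-FKBP cells from E14 cells, so that the depleted factor and the parental line cannot be told apart when lines are compared. OCT4-FKBP cells were sampled at NT, 2, 6 and 24 h with 2 libraries each, SOX2-FKBP cells at NT, 0.5, 1, 2, 6 and 24 h with 2 libraries each, and NANOG-FKBP cells at NT with 2 and at 2, 6 and 24 h with 3 libraries each. By the paper's methods, NT cells received DMSO in place of dTAG-13. Each line was grown from tagged clones, and no untagged cells treated with dTAG-13 were analysed here.

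OCT4, made by Pou5f1, is a POU transcription factor that pairs with SOX2 on enhancers of pluripotent cells. Embryonic stem cells that lose OCT4 are known to leave the pluripotent state and turn on trophectoderm genes, the program of the outer layer of the blastocyst that forms the placenta. In that layer the TEAD factors bind DNA with the coactivator YAP and drive genes such as Cdx2, while the AP-2, GATA and EOMES factors fix the fate. Sites that open many hours after a factor is gone can reflect either its absence or the factors and cell states that follow, which accessibility data alone do not separate.

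Sequence windows of 6 members are printed here because they hold the short motifs that the results return to. Each is 300 bases around the summit of the peak, on the plus strand of mm10 (GRCm38.p6), with capitals for the TEAD core CATTCC, the GATA core AGATAA and the SOX core ACAANG on either strand. The windows of Lama2 and Trp63 belong to the members with the largest ratios, those of Otx2os1 and Rad51b to members with large ratios and TEAD matches, and those of Amotl2 and Ccn1 to members beside genes of the Hippo-YAP pathway. Bases 77 to 82 and 88 to 93 of the Lama2 window are a pair of TEAD cores facing each other, and the Trp63 window has none.
Lama2 intron, chr10:27013024-27013323: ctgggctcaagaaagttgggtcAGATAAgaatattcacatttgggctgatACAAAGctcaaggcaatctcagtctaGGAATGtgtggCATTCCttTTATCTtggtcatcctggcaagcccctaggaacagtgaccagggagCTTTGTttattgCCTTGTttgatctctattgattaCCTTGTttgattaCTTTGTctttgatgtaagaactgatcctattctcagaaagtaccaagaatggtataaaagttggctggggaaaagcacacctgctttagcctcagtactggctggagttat
Trp63 intron, chr16:25775042-25775341: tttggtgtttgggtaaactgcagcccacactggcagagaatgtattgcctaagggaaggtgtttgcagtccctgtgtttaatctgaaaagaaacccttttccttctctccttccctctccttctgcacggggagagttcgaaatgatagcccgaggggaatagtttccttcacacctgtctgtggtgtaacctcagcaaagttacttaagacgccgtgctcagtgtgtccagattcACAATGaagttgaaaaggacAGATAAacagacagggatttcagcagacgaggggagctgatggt
Otx2os1 intron, chr14:48841250-48841549: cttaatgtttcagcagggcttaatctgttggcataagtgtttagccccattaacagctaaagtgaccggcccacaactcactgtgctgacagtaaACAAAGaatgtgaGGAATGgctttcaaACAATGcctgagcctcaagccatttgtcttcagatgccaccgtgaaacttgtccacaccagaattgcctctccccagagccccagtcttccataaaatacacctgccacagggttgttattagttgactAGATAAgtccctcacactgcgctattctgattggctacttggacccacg
Rad51b intron, chr12:79504136-79504435: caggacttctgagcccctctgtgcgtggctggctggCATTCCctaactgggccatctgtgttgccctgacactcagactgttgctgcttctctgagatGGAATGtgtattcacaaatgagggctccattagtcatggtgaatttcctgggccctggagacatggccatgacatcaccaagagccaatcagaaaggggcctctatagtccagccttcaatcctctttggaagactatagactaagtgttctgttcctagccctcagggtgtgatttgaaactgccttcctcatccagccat
Amotl2 downstream, chr9:102734067-102734366: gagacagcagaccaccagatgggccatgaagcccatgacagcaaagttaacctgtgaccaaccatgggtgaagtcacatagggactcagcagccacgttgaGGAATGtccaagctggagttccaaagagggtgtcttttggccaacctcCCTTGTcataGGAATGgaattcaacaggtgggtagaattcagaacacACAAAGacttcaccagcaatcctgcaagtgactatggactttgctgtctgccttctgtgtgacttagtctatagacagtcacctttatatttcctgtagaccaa
Ccn1 upstream, chr3:145703463-145703762: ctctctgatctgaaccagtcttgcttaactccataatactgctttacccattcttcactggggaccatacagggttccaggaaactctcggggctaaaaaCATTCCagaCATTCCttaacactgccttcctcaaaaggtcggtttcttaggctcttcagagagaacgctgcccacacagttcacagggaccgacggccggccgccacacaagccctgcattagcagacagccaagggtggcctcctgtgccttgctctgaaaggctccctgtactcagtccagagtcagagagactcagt

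Total counts in peaks ranged from 1817191 to 17575631 per library. The OCT4-FKBP 24 h libraries were the shallowest of their line, with 7790459 and 6378962 counts, so that 4 CPM stood for about 30 and 24 counts. The least covered member had 51 counts over both of these libraries, and in 117 members the lower of them was below 4 CPM. The replicate 2 libraries of treated NANOG-FKBP cells were shallow and held 13.18% to 17.56% mitochondrial counts, against at most 6.65% in the others. Promoters of all 16 pluripotency genes listed had at least 4 CPM in the NT cells of each line, and so did those of 3 of the 10 fibroblast genes. Among lineage genes it held for 22 of 32 trophectoderm, 14 of 20 primitive endoderm, 10 of 14 mesoderm and 12 of 13 neuroectoderm ones. For formative epiblast genes it held for 7 of 11. Open promoters by themselves therefore do not mark the cell state here.

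Most of the rise came after 6 h. The median level of the members in OCT4-FKBP cells started at 2.62 CPM in NT cells and was 2.66, 3.36 and 6.72 CPM after 2, 6 and 24 h. The ratio of 24 h to NT had a median of 2.33 and reached 12.0, with 90 members at 3 or more and 24 at 5 or more. In 391 members both 24 h libraries were above both NT libraries, which holds for 22% of all peaks and follows here from the choice. In 228 members both were above the other 29 libraries of the series. The rule favours this too, and the share of all peaks was not counted, so nothing is read from it. At 6 h the ratio to NT had a median of 1.26, and a median of 16.3% of the 24 h rise was present. Only 20 members had made at least 50% of their rise by 6 h, and 67 were still at or under their NT level.

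**Figure D1:**
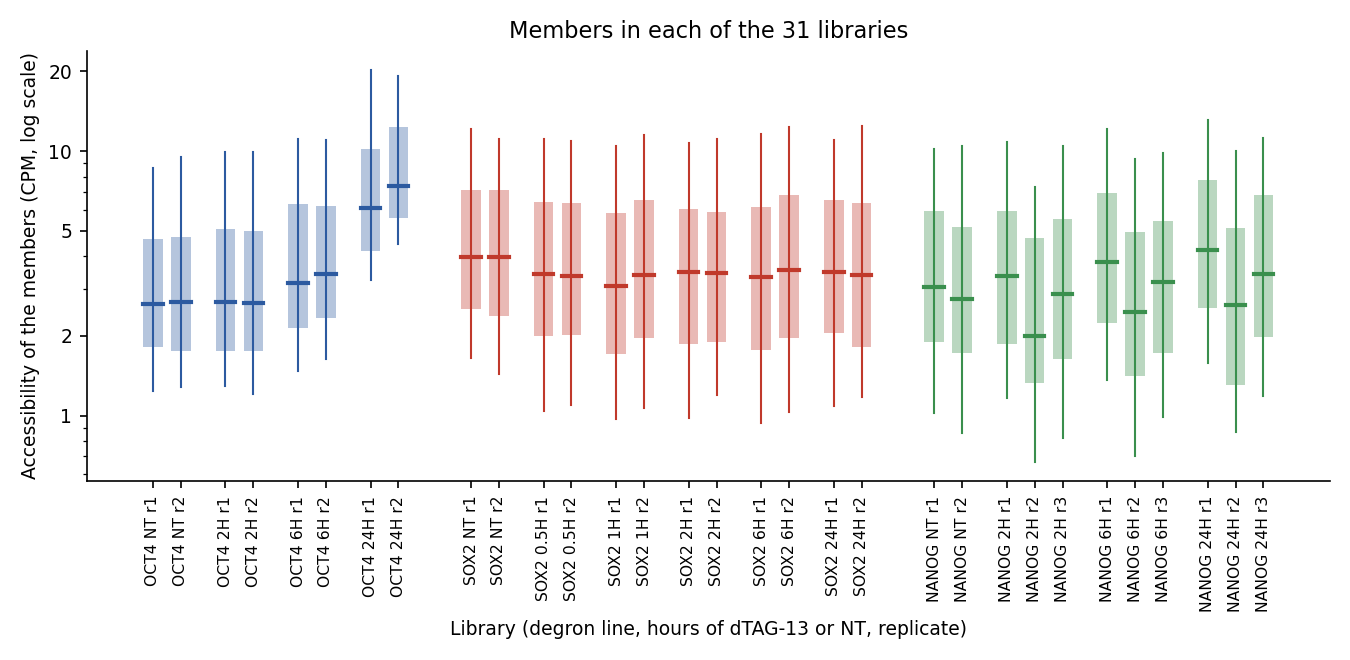
CPM of the 406 members in each of the 31 libraries on a log axis, with bars for the median, boxes from the 25th to the 75th percentile and lines from the 10th to the 90th. The median is 2.65 and 2.68 in the OCT4-FKBP NT libraries and 6.1 and 7.39 in the 24 h libraries, and lies between 2.0 and 4.21 in the SOX2-FKBP and NANOG-FKBP libraries.

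The thresholds cut through a continuum. The members nearest to the level limit had 4.008, 4.018 and 4.018 CPM at 24 h, and peaks just outside it 3.975 and 3.998. At the limit on the ratio the nearest members stood at 2.001, 2.002 and 2.002, and the nearest excluded peaks at 1.999, beside 1 that rounds to 2. Members with 2 h ratios of 1.244 to 1.249 faced excluded peaks at 1.251 and 1.253, and for SOX2-FKBP cells the ratios were 1.196 to 1.199 inside and 1.201 to 1.202 outside.

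In NT cells of all 3 lines the members were already partly open. Their median was 3.99 CPM in SOX2-FKBP NT cells and 2.98 in NANOG-FKBP NT cells, against 2.62 in OCT4-FKBP NT cells. In 198 members the OCT4-FKBP NT mean was below both other NT means. The rule favours a low OCT4-FKBP NT level and the lines differ in parental cells, so this difference is not read further. The OCT4-FKBP 24 h level was the highest of the 14 group means in 326 members, which the rule favours, and the share of all peaks was not counted. Over the SOX2 time course, from 0.5 to 24 h, the median stayed between 3.29 and 3.5 CPM. The SOX2-FKBP ratio of 24 h to NT, which the rule capped, was between 0.8 and 1.2 in 295 members and at most 0.5 in 37.

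Most members lay away from promoters. By the position of the summit 49% were intergenic and 39.4% intronic, against 38% and 48.7% of all peaks, and 17.2% were within 1 kb of an annotated transcription start (TSS), against 16.7%. Among the 52348 peaks with at least 4 CPM in OCT4-FKBP cells at 24 h, a set matched to the level limit, 36% were at a start. The median distance to the nearest start of a protein-coding gene was 43.4 kb, compared with 27.8 kb for all peaks and 12.8 kb for the peaks of that level. Of the 84 peaks that passed the thresholds in both lines 47.6% were at starts, and of the 150 in SOX2-FKBP cells only 5.33%. Chromosome 8 held 41 members, or 10.1%, against 5.89% of all peaks and 7.06% of those of that level. OCT4-FKBP libraries carried 7.66% to 7.94% of their counts on chromosome 8 at every time, SOX2-FKBP libraries 5.3% to 5.46% and NANOG-FKBP libraries 5.73% to 7.39%, and the part of this in the result was not tested.

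The 70 promoter members and the 336 distal members differed in size. Promoter members had a median of 8.19 CPM at NT and 18 CPM at 24 h, with a median ratio of 2.15, and 3 of them reached a ratio of 3. Distal members had medians of 2.39 and 6.07 CPM, a median ratio of 2.42, and 87 of them reached 3. The rule fixes a floor on the level and on the ratio, so these medians describe the set and no test is given.

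The largest ratio was in an intron of Lama2, a laminin subunit of basement membranes, at chr10:27013020-27013327, 259.8 kb from the nearest start of a protein-coding gene, that of Arhgap18, and 47089 bp from that of Gm30534, the nearest of any gene. OCT4-FKBP cells had 0.66 and 0.52 CPM at NT and reached 6.5 and 7.72 at 24 h, a ratio of 12.0, after 0.46 and 0.94 in the 2 h libraries and 1.34 and 1.33 in the 6 h libraries. Libraries of the other lines ranged from 0.0 to 2.18 CPM, the highest being a NANOG-FKBP 24 h library. Both 6 h libraries were above both NT libraries, at a ratio of 2.25, and the 24 h libraries stood apart from all others. An intron of Trp63, which encodes the epithelial regulator p63, held the next, at chr16:25774773-25775266. Its libraries had 1.24 and 0.35 CPM at NT, 1.29 and 0.47 after 2 h and 1.47 and 1.26 after 6 h, and then 6.78 and 10.68 CPM after 24 h, a ratio of 11. In NANOG-FKBP cells it had 0.44 and 0.52 CPM at NT and 2.54, 0.87 and 1.72 at 24 h, which did not pass the test (log2 fold change 2.04, standard error 0.69, adjusted p = 0.126 by edgeR's quasi-likelihood test). All 3 of these 24 h libraries were above both NT libraries.

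Other large ratios were spread over many kinds of gene. A peak 39.6 kb upstream of Btg3, an antiproliferative factor, at chr16:78416632-78416988, went from 1.49 and 0.58 CPM at NT to 8.81 and 6.73 at 24 h, a ratio of 7.49. An intron of Otx2os1, a non-coding RNA beside the epiblast regulator Otx2, held a peak at chr14:48841284-48841612, 167.6 kb upstream of Otx2, with 0.5 and 0.76 CPM at NT, 0.85 and 1.01 at 6 h and 3.39 and 5.75 at 24 h, a ratio of 7.29. The libraries of the other lines had between 0.52 and 2.51 CPM there, so the NT level of OCT4-FKBP cells was at the lower end. The remaining members of the 10 largest ratios, from 7.2 down to 6.23, lay near Arid2, in introns of Gulp1 and Rad51b, and near Clvs1, Fscb and Epha7. The Gulp1 peak had 0.33 and 0.87 CPM at NT and 1.22 and 7.39 at 24 h, so that 1 library carried most of the rise. Each of the 10 was distal, as were 336 of all 406 members.

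The highest levels were mostly promoters with modest ratios. The promoter of Cyp1b1, a cytochrome P450 that handles steroids and retinoids, at chr17:79715095-79716286, had 26.7 and 20.71 CPM at NT, 36.33 and 24.01 at 6 h and 74.26 and 43.36 at 24 h, a ratio of 2.48. The 24 h libraries differed from each other by more than the NT libraries did, and both lay above every NT and 6 h library. A peak in an untranslated part of Zfp503, a zinc-finger repressor, at chr14:21987268-21988514, had 12.02 and 14.25 CPM at NT and 52.58 and 33.18 at 24 h, a ratio of 3.26. Its range over the SOX2-FKBP and NANOG-FKBP libraries was 9.8 to 24.45 CPM. The promoter of Rel, an NF-kappa-B subunit, had 22.72 and 27.4 CPM at NT and 56.78 and 46.49 at 24 h, a ratio of 2.06. Promoters near Cct5, Pter, Spo11, Elmo1, Erlin2 and Creb5 and a peak on an unplaced contig made up the rest of the 10.

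**Figure D2:**
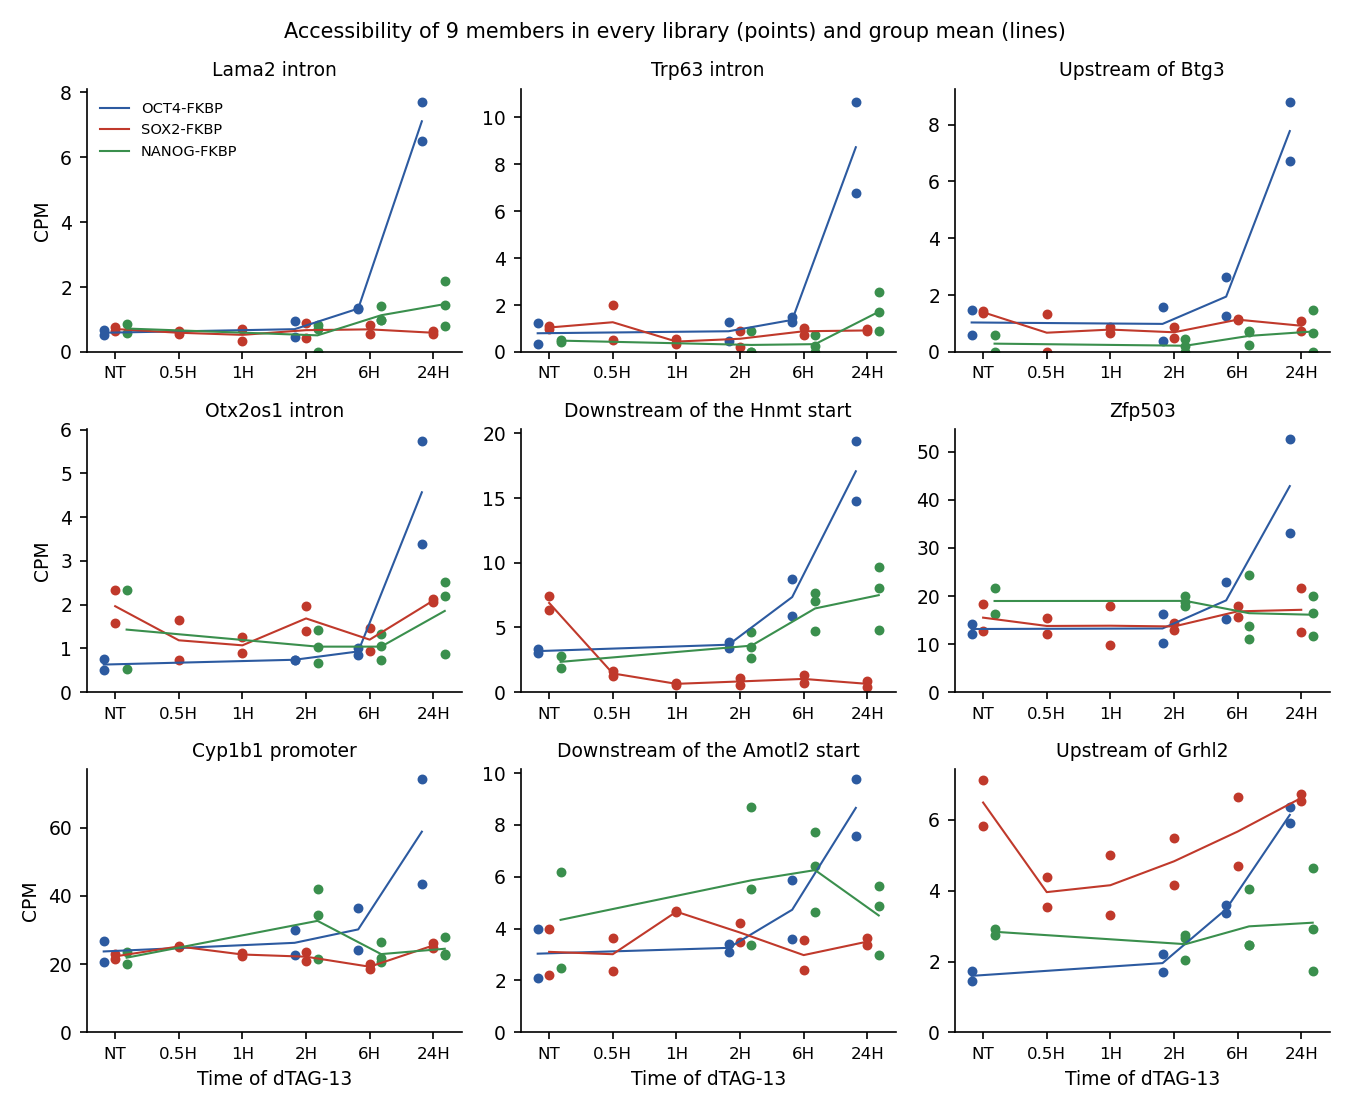
CPM of 9 members in every library (points) with group means (lines) by time of dTAG-13, at equal steps that are not to scale, for OCT4-FKBP, SOX2-FKBP and NANOG-FKBP cells. In 8 of the panels the OCT4-FKBP mean at 24 h is the highest, and in the Grhl2 panel the SOX2-FKBP cells are as high from the start, with 5.84 and 7.14 CPM at NT.

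No member was nearest to a trophectoderm gene. Peaks were assigned to the nearest protein-coding start within 100 kb, which says where a peak lies and not which gene it serves. Of 467 peaks assigned to 32 trophectoderm genes, among them Cdx2, Eomes, Gata2, Gata3, Tfap2a, Tfap2c and Elf5, 0 were members, whereas 281 of 149696 peaks (0.188%) within 100 kb of any protein-coding start were. At a share this low, a count of 0 among 467 peaks does not set these genes apart. The members closest to such genes were 226.3 kb from Gcm1, 307.2 kb from Lrp2, 328.0 kb from Eomes and 428.0 kb from Tfap2c, each with another gene nearer.

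Peaks beside trophectoderm genes did reach the 24 h level and ratio limits, and were removed by the limits on 2 h and on SOX2. Across all peaks 4069 (2.2%) met the level and ratio limits, of which 1626 were over both other limits, 1224 over the SOX2 limit only, 813 over the 2 h limit only and 406 were kept. Beside trophectoderm genes 18 of 467 (3.85%) met them, against 5 of 97 (5.15%) beside the fibroblast genes listed as another cell type. Of the 18, 14 were over both other limits, 3 over the SOX2 limit and 1 over the 2 h limit. They included peaks near Hand1, Krt8, Krt18, Elf5, Tead4, Fgfr2, Bmp4 and Wnt7b. A peak 25.8 kb from the start of Elf5, a gatekeeper of the trophoblast lineage, stood at 2.96 times NT at 24 h but was already at 2.29 times at 2 h, and at 3.98 times after 24 h of SOX2 depletion. A peak 75.2 kb from Tead4 stood at 4.17, 1.8 and 4.28 times in the same order. The keratin peak 6.2 kb upstream of Krt19 was the one over the 2 h limit alone, with 6.16 times at 24 h, 2.57 at 2 h and 0.944 after SOX2 depletion.

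Each of the other lists held 0 to 2 members, counts too small to be set against the 0.188% of all peaks near genes. Primitive endoderm genes had 0 members among 263 peaks, although 9 met the level and ratio limits, including a peak 74.3 kb upstream of Gata6 at 9.47 times NT and one 15.9 kb from Lamb1 at 6.14 times, both over the 2 h limit. Neuroectoderm genes had 0 of 134 and fibroblast genes 0 of 97. Among mesoderm genes 1 of 203 peaks was a member, in an intron of Tbx3os1, 82.2 kb upstream of Tbx3, a T-box factor of both naive pluripotency and the extraembryonic lineages, at chr5:119588168-119589475. It had 6.63 and 9.31 CPM at NT, 12.7 and 10.17 at 6 h and 16.94 and 19.71 at 24 h, a ratio of 2.3. Among the pluripotency genes 1 of 398 was a member, 23.7 kb downstream of the Klf2 start in an intron of Eps15l1, with 2.24 and 1.57 CPM at NT and 3.52 and 4.6 at 24 h. It sits barely above the level limit.

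The formative list had 1 member among 177 peaks and the Hippo-YAP list 2 among 172. The formative one, 73.5 kb upstream of Grhl2, a grainyhead factor that opens epithelial enhancers, at chr15:37159156-37159929, had 1.74 and 1.45 CPM at NT, 2.22 and 1.69 after 2 h, 3.36 and 3.6 after 6 h and 6.37 and 5.91 after 24 h of depletion. Its 4 later libraries were above its 4 early ones, and SOX2-FKBP cells had as much at NT. The member 17.5 kb downstream of the start of Amotl2, an angiomotin that binds YAP, at chr9:102733674-102734685, had 3.98 and 2.09 CPM at NT, 5.86 and 3.6 at 6 h and 9.76 and 7.56 at 24 h, a ratio of 2.85. The one 53.6 kb upstream of Ccn1, a YAP target that encodes a matrix protein, at chr3:145701871-145704117, had 5.06 and 5.88 CPM at NT and 8.94 and 13.47 at 24 h, a ratio of 2.05. Its SOX2-FKBP libraries at NT already had 11.58 and 8.57 CPM, so that the 24 h level was not above that of the other lines. Both windows hold a pair of TEAD cores, shown in capitals above. Such windows were uncommon, with at least 2 TEAD cores in 21 of 403 members (5.21%). The share was 2.11% among peaks with at least 4 CPM in OCT4-FKBP cells at 24 h and 2.24% among all peaks.

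Of the 406 members 23 lay within 50 kb of another, in 10 clusters, and 4 of these clusters were on chromosome 8. The nearest gene with the most members was Cbr4 on chromosome 8, a carbonyl reductase, with 5 in 2 clusters on either side of its start, of which 3 were within 100 kb. Abra, Cyp1b1, Elmo1 and Kctd1 were among the genes with 2 within that distance. The 3 members around Cyp1b1 and Rmdn2 spanned 55.1 kb with 7 peaks, so most peaks between them were not members.

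Close to the summit, the sequence of the members differed from that of other peaks in a few motifs. A window of 300 bases around the summit could be read for 403 members, and 17 short motifs were counted on both strands. No motif contains the letters of another. The TEAD core CATTCC was in 133 windows (33%), against 17.6% of the peaks of that level and 18.8% of all peaks. The core CTTTGAA of the TCF/LEF factors, which answer to Wnt signalling, was in 13.9%, against 5.86% and 6.98%. SOX cores, ACAANG, were in 53.8%, against 44% and 49.2%, and GATA cores, AGATAA, in 14.6%, against 8.39% and 10.4%. AP-2 sites, GCCNNNGGC, were in 21.8%, against 18.4% and 11.9%, and FOX sites, TGTTTAC, in 5.96%, against 3.21% and 4.01%. Over whole peaks TEAD cores were in 55.8%, against 49.2% and 36.3%, and TCF cores in 26.6%, against 21% and 15.5%. SOX cores were then in 84.1%, against 85.9% and 73.5%, and GATA cores in 36.5%, against 33.6% and 24.9%. For AP-2 sites it was 33%, against 43.7% and 24%, and for FOX sites 14.9%, against 12.2% and 9.04%. Median peak widths were 830, 1133 and 636 bases in the same order, and the part of width was not tested. A match is a description of the letters and not a bound site, and since the set was chosen with results known these shares carry no test.

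Some motifs were no more common in members. The octamer ATGCAAA, the recognition site of OCT4, was in 4.47% of members and 4.45% of the peaks of that level. ESRRB sites, CAAGGTCA, were in 2.98% and 4.23%, AP-1 sites, TGANTCA, in 7.44% and 8.17%, KLF sites, CACACCC, in 8.68% and 11.6%, and CTCF sites, AGNGGGCGC, in 2.48% and 4.83%. All peaks held them in 6.45%, 5.2%, 9.85%, 12.1% and 2.59%, in this order. Windows without any of the TEAD, TCF, GATA, AP-2 or SOX letters made up 19.6% of members and 32.5% of the peaks of that level.

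The members hold fewer promoters than the peaks of that level, so the shares are also given for distal peaks alone. Distal members had a median GC content of 48%, against 52% for distal peaks of that level and 50% for all distal peaks, and their part in the motif shares was not tested. TEAD cores were in 35.4% of distal members, against 20.6% and 19.7%, and TCF cores in 15.3%, against 7.31% and 7.5%. SOX cores were in 59.2%, against 50.6% and 51.3%, and GATA cores in 15.6%, against 10.6% and 11.2%. AP-2 sites were in 19.5%, against 13.9% and 10.2%, and FOX sites in 6.01%, against 3.82% and 4.25%. In promoter members TEAD cores were in 21.4%, against 12.3% of promoter peaks of that level. Of the 44 distal peaks that passed the thresholds in both lines 34.1% had a TEAD core, a share close to that of the distal members, 9.09% a TCF core and 45.5% a SOX core. GATA cores were in 18.2% and AP-2 sites in 29.5% of these 44, above the shares of the distal members, and FOX sites in 2.27%.

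TEAD letters were placed at the summit. In bins of 100 bases, distal members had a TEAD core in 16.2% just before and 12% just after the summit, and in 5.71% to 10.2% of the other bins. Distal peaks of that level had 7.89% and 8.11% at the summit. SOX cores followed the same course, with 29.7% and 32.7% against 22% and 22.4%, and TCF cores had 5.41% and 6.31% against 2.58% and 2.49%. GATA cores did not, with 3.9% and 5.11% at the summit and up to 8.11% beside it.

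**Figure D3:**
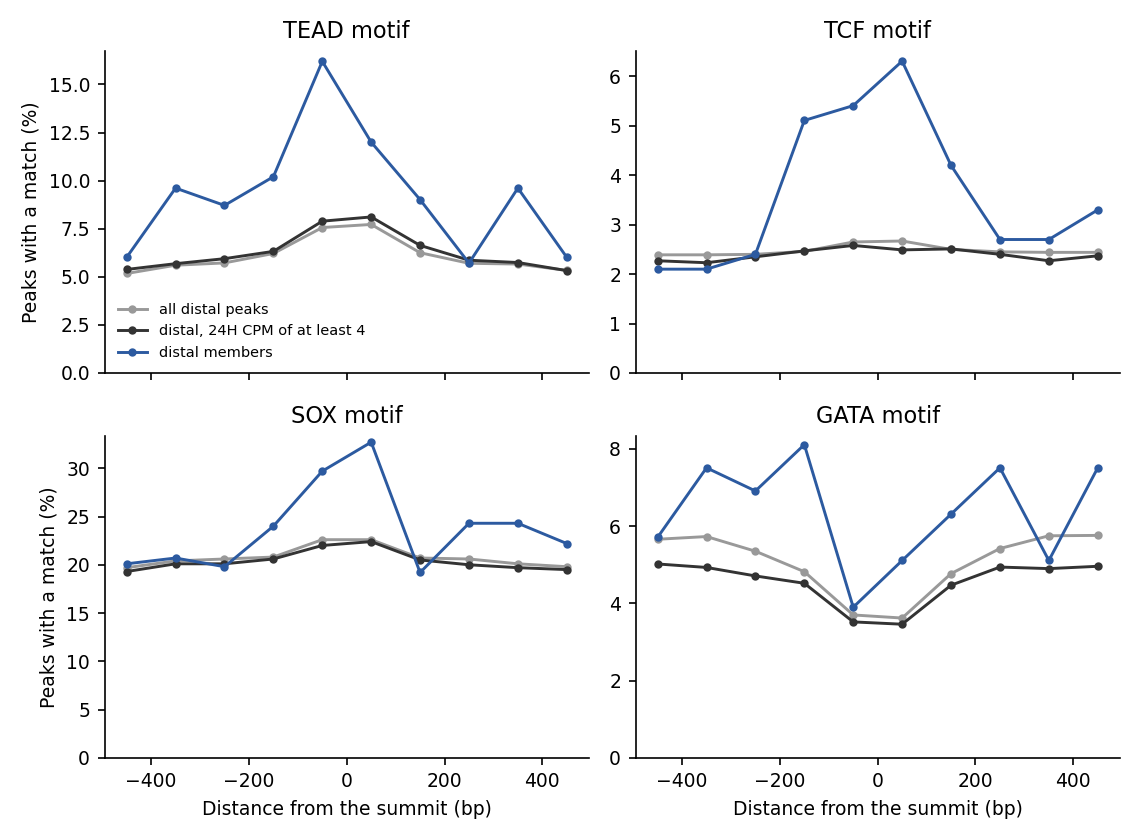
Share of peaks with a match in each bin of 100 bp, by distance from the summit, for the distal members, all distal peaks and distal peaks with at least 4 CPM at 24 h. TEAD, TCF and SOX matches of the members are most common within 100 bp of the summit, at up to 16.2%, 6.31% and 32.7%, and GATA matches are not.

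Several motifs, in and beyond the TEAD, TCF and SOX group, were more common in distal members with larger ratios. The distal members were split by ratio into 3 parts of about equal size. Of the 114 with ratios from 2 to 2.21, 31.6% had a TEAD core and 50.9% a SOX core. The 108 in between had 36.1% and 55.6%, and the 111 with ratios over 2.77 had 38.7% and 71.2%. TCF cores were in 12.3%, 15.7% and 18% of the 3 parts, and FOX sites, TGTTTAC, in 4.39%, 3.7% and 9.91%. E-boxes, CAGGTG, were in 25.4%, 26.9% and 40.5%, grainyhead sites, AACNNGTT, in 1.75%, 8.33% and 8.11%, and AP-1 sites in 5.26%, 8.33% and 10.8%. The octamer went the other way, with 7.89%, 4.63% and 2.7%. The ratio is what chose the members, so this describes their makeup.

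The 6 h libraries of the same line were not used by the rule, but the NT libraries were, so this comparison is only partly independent of the choice. The limit on 24 h over NT favours low NT values, which also raise 6 h over NT. Gains are thereby favoured and losses made rarer than among all peaks, while the 2 h limit works against this. The part of the choice in the counts, medians and adjusted p-values at 6 h was not tested. A member is called gained or lost where edgeR's quasi-likelihood test has an adjusted p under 0.05 over the 166430 peaks tested, and 405 members were tested. At 6 h 25 members were gained, or 6.17%, against 4.12% of all peaks, and 0 were lost, against 7.97%. At an unadjusted p under 0.05 the counts were 98 and 1, and DESeq2's test called 14 and 0. With the replicate number as a block, which the OCT4-FKBP libraries allow, 93 were gained (23%), against 8.8% of all peaks, and 1 was lost, against 10.9%. The log2 fold change was above 0 in 355 members (87.7%), against 50.7% of all peaks, with a median of 0.38 against 0.01. In 173 members both 6 h libraries were above both NT libraries, which holds for 19.6% of all peaks. At 24 h, where the rule used the same libraries, 403 of 405 passed, against 10.8% of all peaks, from which nothing is read.

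The member with the clearest change at 6 h was 50.3 kb downstream of the start of Hnmt, the histamine N-methyltransferase, at chr2:23998463-23999628. OCT4-FKBP cells had 3.32 and 3.02 CPM at NT and 3.42 and 3.91 after 2 h, then 5.92 and 8.78 CPM after 6 h and 14.77 and 19.38 after 24 h. The 6 h change was 1.27 on the log2 scale (standard error 0.27, adjusted p = 0.000712, edgeR), and it was called in 10 of 10 other settings. In SOX2-FKBP cells the same peak went the other way, from 6.33 and 7.46 CPM at NT to at most 1.64 at 0.5 h and to 0.43 and 0.85 at 24 h. NANOG-FKBP cells had 2.78 and 1.9 CPM at NT, 7.68, 7.04 and 4.69 at 6 h and 9.64, 4.79 and 8.06 at 24 h, a log2 fold change of 1.77 at 24 h (standard error 0.32, adjusted p = 0.000433, edgeR) called in 12 of 12 other settings. This is the 1 member gained at 6 h of NANOG depletion (1.48, standard error 0.33, adjusted p = 0.0103, edgeR), where 0.0367% of all peaks were.

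The other members gained at 6 h had log2 fold changes of 0.72 to 1.37 and were mostly distal, with 4 at starts. Of the 405 members tested 70 were at starts. They include the Grhl2 peak (1.19, standard error 0.31, adjusted p = 0.00522, edgeR), a peak 101.7 kb upstream of Lmo1, a LIM-only cofactor (0.96, standard error 0.24, adjusted p = 0.00319, edgeR), and a peak in an intron of Myh9, a non-muscle myosin heavy chain (1.09, standard error 0.29, adjusted p = 0.00704, edgeR). Pairs of neighbouring members were gained upstream of Kbtbd8 and downstream of the Pawr start. The Kbtbd8 peak at chr6:94981340-94982650 had 4.06 and 4.89 CPM at NT, 7.69 and 9.22 at 6 h and 16.13 and 14.13 at 24 h, while the other, at chr6:94944091-94944606, had 3.79 and 11.5 at 24 h and so differed between the libraries. In 23 of the 25 both 6 h libraries were above both NT libraries, which largely follows from calling them on these same libraries. Of the 25, 9 held a TEAD and 17 a SOX core in their window, beside 133 (33%) and 217 (53.8%) of the 403 members with a window. So few peaks do not set either core apart.

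**Figure D4:**
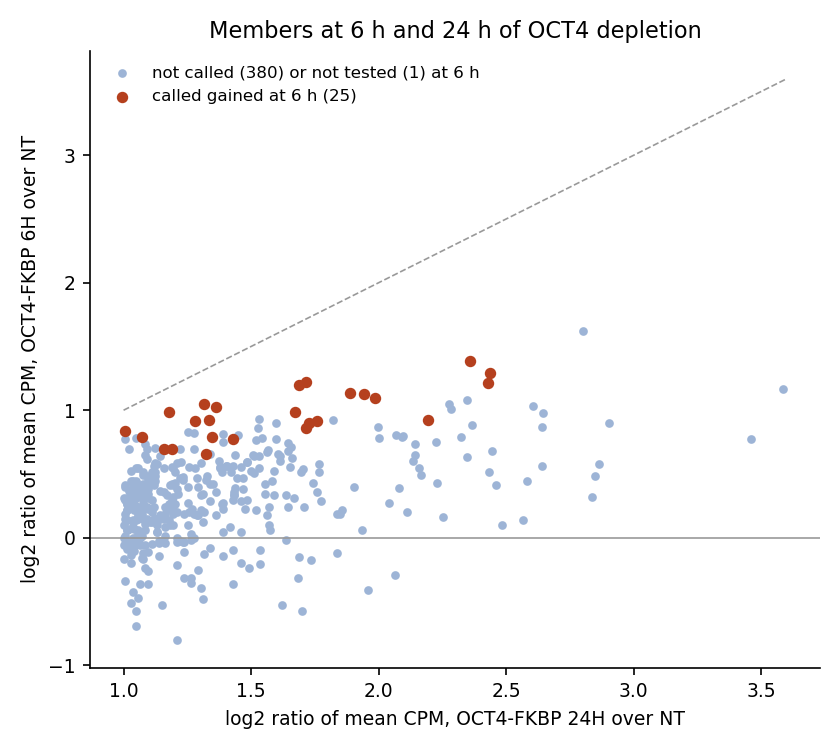
Log2 ratio of mean CPM to NT at 6 h against that at 24 h of OCT4 depletion, one point per member, with the 25 gained at 6 h by edgeR in red and a dashed line where both ratios are equal. Every member lies under the line, since the lowest ratio of 24 h to 6 h is 1.12, and 67 lie at or below 0.

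NANOG depletion was not used by the rule, and there most members were somewhat more open at 24 h, although few passed the test. After 2, 6 and 24 h their median log2 fold changes were -0.02, 0.07 and 0.24, in this order, and those of all peaks 0.00, 0.02 and 0.03. It was above 0 at 24 h in 294 members (72.6%), against 52.5% of all peaks. Without 24 h replicate 1 the median at 24 h was 0.14 and 244 members were above 0. Distal members had a median of 0.32, against 0.01 for all distal peaks, and promoter members 0.11, against 0.06. At 24 h 10 members were gained (2.47%), against 0.288% of all peaks, and 2 were lost (0.494%), against 2.25%. In 75 members all 3 of the 24 h libraries were above both NT libraries, which holds for 10.4% of all peaks. At 2 h 0 were gained, against 0.0162%, with 10 at an unadjusted p under 0.05, and 1 was lost, against 0.938%. At 6 h 0 were lost, against 1.08%, with 9 at an unadjusted p under 0.05.

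All 10 members gained after 24 h without NANOG were distal, as were 335 of the 405 members tested. Besides the Hnmt peak they lay 213.6 kb upstream of Rtl1, an imprinted retrotransposon-derived gene of the placenta (1.43, standard error 0.35, adjusted p = 0.0124, edgeR), 12.1 kb upstream of Lipo3, a lipase (1.73, standard error 0.40, adjusted p = 0.00864, edgeR), and near Lrpprc, Gm3646, Impad1, Aga, Cemip2, Foxk1 and Tbl1xr1, the Aga peak on chromosome 8. The Rtl1 peak had 3.95 and 2.07 CPM at NT and 10.78, 6.1 and 6.48 at 24 h of NANOG depletion, and 2.71 and 6.41 CPM at 24 h of OCT4 depletion, where 1 library carried most of the rise. The Gm3646 peak at chr1:39796060-39797162 and the Hnmt peak were the 2 members gained both at 6 h without OCT4 and at 24 h without NANOG. Lost after NANOG depletion were a peak 300.1 kb upstream of Nxpe4 (-1.54, standard error 0.38, adjusted p = 0.0128, edgeR) and a peak in an intron of Cald1, a caldesmon of actin filaments (-1.17, standard error 0.32, adjusted p = 0.0329, edgeR). The Cald1 peak had 50.7 and 32.04 CPM in NANOG-FKBP NT cells, 31.53 and 25.71 in SOX2-FKBP NT cells and 2.24 and 6.17 in OCT4-FKBP NT cells, and its OCT4-FKBP 24 h libraries had 3.79 and 18.89.

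**Figure D5:**
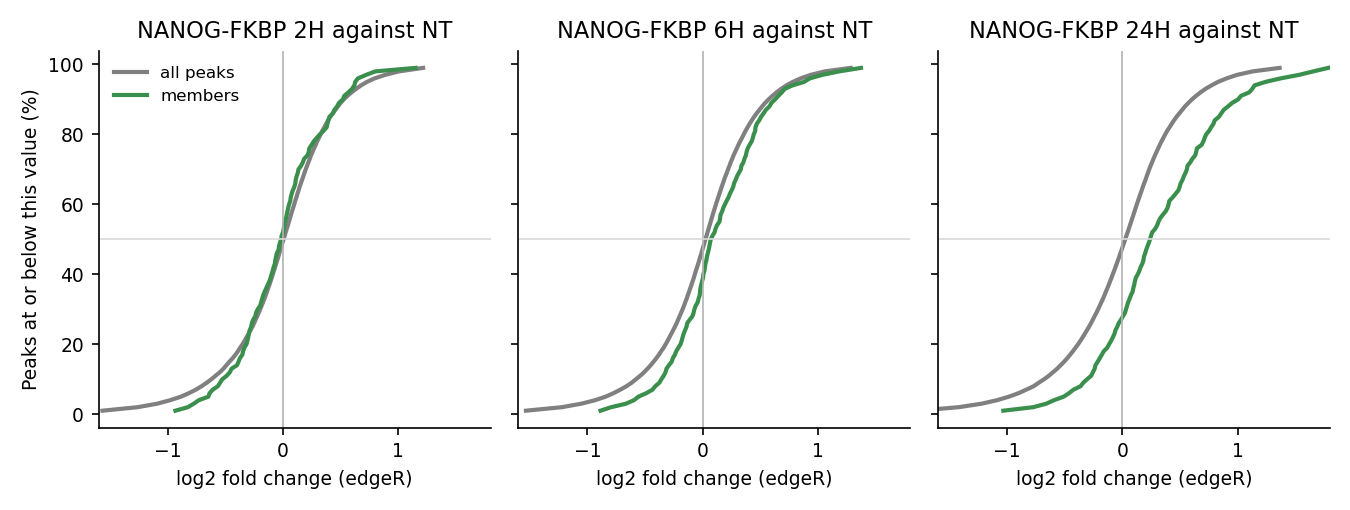
Cumulative share of peaks by edgeR log2 fold change after 2, 6 and 24 h of NANOG depletion against NT, for the members and for all peaks tested. Over time the members' curves cross 50% at -0.02, 0.07 and 0.24, and those of all peaks at 0.00, 0.02 and 0.03.

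TEAD, SOX and TCF matches were compared with these responses as a description. Of the 10 members gained at 24 h of NANOG depletion, 2 held a TEAD, 4 a SOX and 1 a TCF core. Members with a TEAD core had a median log2 fold change of 0.39 at 6 h of OCT4 depletion and 0.4 at 24 h of NANOG depletion, and those without one 0.37 and 0.2. With a SOX core the medians were 0.45 and 0.31, and without one 0.31 and 0.2. With a TCF core they were 0.45 and 0.18, and without one 0.37 and 0.25, so that the order turned between the depletions. These groups mix distal and promoter members. TEAD cores were in 35.4% of distal and 21.4% of promoter members, SOX cores in 59.2% and 28.6%, and TCF cores in 15.3% and 7.14%. Distal members also had the higher medians, 0.41 and 0.32, against 0.28 and 0.11 in promoter members. The part of position in these differences was not tested.

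Between 2 and 6 h of SOX2 depletion, times the rule did not use, 0 members were gained and 0 lost by edgeR, and 0% of all peaks were in either direction. At an unadjusted p under 0.05 there were 3 and 2 members, DESeq2's test called 0 and 0, and the median log2 fold change was 0.05 against -0.01 over all peaks. The response at 6 h differed between OCT4 and NANOG depletion in 3 members by the test of the difference itself, against 1.34% of all peaks with a higher OCT4 response, and these are the peaks nearest to Gucy1a2, Cd59a and Nxpe4.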

How the data were processed

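The authors deposited raw counts, whole numbers of ATACseq fragments in each peak of a shared list, which had not been normalized. Before this step the authors mapped both reads of a pair with BWA (0.7.17-r1188) on mm10, dropped alignments with a quality under 10 and duplicates found by Picard (2.12.0), and took the shared list from MACS2 run over pooled libraries. Of 45 samples 31 have a column, and the other 14 were not analysed here.

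Groups follow the sample labels. The members, gene lists, motifs and tests were chosen with earlier results of these data known. CPM divides a count by the library total without mitochondrial peaks. For the tests edgeR 4.0.16 (under R 4.3.3) was given the counts of 27 libraries at NT, 2, 6 and 24 h in 1 fit by glmQLFit, with TMM factors, and glmQLFTest at an adjusted p (Benjamini-Hochberg) of 0.05. Peaks entered with over 10 counts in over 6 libraries, which 166430 did, and 1 member did not. DESeq2 1.42.0 was an alternative, as were other scalings, filters and fits and leaving out libraries. The scripts were tested on simulated data. A standard error is the size of the log2 fold change over the root of its F value. Replicates are labelled samples. The methods mention duplicates and, for SOX2, a further clone, but not which libraries come from it or whether duplicates were separate cultures, so p-values measure the spread between libraries.

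OCT4-FKBP libraries with the same number deviated together in all 6 pairs of conditions (correlation 0.14 to 0.35), so the numbers were taken to pair them. The main fit had no block, so its calls, standard errors and adjusted p-values leave this pairing out. Pairing entered only in the setting with the replicate block. In NANOG-FKBP the correlation of NT with treated libraries was -0.03 to 0.2, and no pairing was taken. For the 3 SOX2-FKBP pairs of treated times it was 0.17 to 0.18.

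Positions and gene names are from GENCODE vM21 on GRCm38.p6, by the summit of each peak. Named peaks are the 10 members with the largest 24 h ratio and non-overlapping libraries, the 10 with the highest 24 h level, members nearest to listed genes, genes with the most members, and peaks beside each threshold. Members called in a test are named by their calls, the Hnmt, Cald1 and Krt19 peaks and those beside Elf5, Tead4, Gata6 and Lamb1 after their values were seen.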

Additional observations from a re-analysis of the deposited data

Results flagged for a closer look

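At 3 members (0.741%, against 1.34% of all peaks with a higher OCT4 response) the response at 6 h of OCT4 depletion differed from that at 6 h of NANOG depletion, by edgeR's test of the difference between the 2 log2 fold changes over all peaks. The share of members is below that of all peaks, so the 3 are described as single peaks and nothing is read about the set. The peak 11.6 kb upstream of Gucy1a2, a guanylate cyclase subunit, at chr9:3520747-3521781, had a difference of 1.44 (standard error 0.37, adjusted p = 0.0111, edgeR), from 0.65 after OCT4 and -0.79 after NANOG depletion. OCT4-FKBP cells had 14.59 and 8.96 CPM at NT and 18.93 and 16.17 at 6 h, and NANOG-FKBP cells 16.22 and 12.4 at NT and 8.67, 7.04 and 8.88 at 6 h, so the libraries of each line did not overlap between NT and 6 h and moved in opposite directions. In OCT4-FKBP cells both 6 h libraries were above both NT libraries in 19.6% of all peaks. The share with the NANOG-FKBP pattern was not counted.

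A peak in an intron of Cd59a, a complement regulator, at chr2:104098691-104099421, had a difference of 1.48 (adjusted p = 0.0113, edgeR), from 0.70 and -0.78. The peak upstream of Nxpe4 at chr9:47860583-47862182 had a difference of 1.83 (adjusted p = 0.0179, edgeR), from 1.01 and -0.82. The 6 h change after NANOG depletion did not pass the test alone at any of the 3 peaks, and after OCT4 depletion it passed at the Nxpe4 peak (adjusted p = 0.0448, edgeR). The OCT4-FKBP NT libraries are also in the rule that chose the members, and whether this adds to the difference was not tested.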

How the results depend on the processing

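The number of members, 406, depends on the scaling and on single libraries. It was 791 with DESeq2's size factors, which kept 326 of the 406, 914 with a level limit of 2 CPM, 211 with SOX2-FKBP at most at its NT level and 90 with a ratio of at least 3. Leaving out a library gave 340 to 832, with 832 without OCT4-FKBP 24 h replicate 1 (319 of the 406 kept) and 614 without its replicate 2 (250 kept). TMM scaling gave 580, totals with the mitochondrial peaks 371 and, added after seeing the data, leaving out chromosome 8 365. The median log2 ratio of all tested peaks at 24 h of OCT4 depletion was -0.12 by totals, -0.01 by TMM and 0.06 by DESeq2's size factors.

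The 25 members gained at 6 h of OCT4 depletion became 16 with totals, 14 in a fit of that line alone, 14 with DESeq2's test, 2 with at least 10 counts in every library, which left 57 members to test, and 93 with the replicate block, where 1 was lost. Leaving out a library gave 12 to 30, with 12 both without NT replicate 2 and without 6 h replicate 1. For NANOG depletion at 24 h the 10 gained became 6 in a fit of that line alone, 4 with DESeq2's test, 0 with at least 10 counts in every library and 24 with the replicate block. Leaving out a library gave 1 to 12, with 1 without NT replicate 2 or 24 h replicate 1 and 4 without NT replicate 1 or 24 h replicate 3. The 2 lost became 0 with at least 10 counts in every library, 4 with the block, 1 with DESeq2's test and 1 without the shallow treated libraries, a setting added after seeing the data, and leaving out a library gave 0 to 2, with 0 without NT replicate 1, 24 h replicate 1 or 24 h replicate 3 and 1 without 24 h replicate 2. The SOX2 counts were 0 in every setting, the replicate block included. For the members called at 6 h of OCT4 or 24 h of NANOG depletion, 252 values under these settings kept their call, 149 no longer passed and 0 changed sign. Of the motif and gene-distance shares, 17 moved and 1 did not when counted over whole peaks or all annotated genes. Apart from the smaller number of members tested or libraries used, the cause was not tested. With a lone library in a group, the fit assumes that it varies like the others.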
